A study of Rattus norvegicus with 24 samples.

Results

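The neurotrophins and their receptors were followed here as 5 genes of the rat spiral ganglion: the ligands Bdnf and Ntf3, the Trk receptors Ntrk2 and Ntrk3, and the shared receptor Ngfr. They were found by matching the RefSeq transcript of each array row to a gene symbol, and they are 5 of the 5750 genes that could be named and tested. Each of the 5 has a single row on the array, so no choice between rows was needed. All samples came from male and female Sprague-Dawley rats, and the 24 samples form 8 groups of 3 that differ in condition, portion of the cochlea and age. Deaf rats had received kanamycin, an antibiotic toxic to hair cells, given once a day by intraperitoneal injection between postnatal days 8 (P8) and 16 (P16) at 400 mg/kg, and hearing rats were littermates that had not been injected. The groups were P32 deaf base, P32 deaf apex, P32 hearing base, P32 hearing apex, P60 deaf base, P60 deaf apex, P60 hearing base and P60 hearing apex. Each sample pooled 4 to 6 ganglia, which were separated from the organ of Corti, the sensory epithelium, before RNA was extracted. The hearing rats received no vehicle, so the injections, the drug itself and the loss of hair cells cannot be told apart. The labels do not say whether samples of the same replicate number came from the same animals, and the p-values measure the spread between these pooled samples.

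Neurotrophins are secreted growth factors. In the cochlea, brain-derived neurotrophic factor (Bdnf) and neurotrophin-3 (Ntf3) are known to be made by hair cells and supporting cells, and they keep spiral ganglion neurons alive during development by binding the tyrosine kinases TrkB (Ntrk2) and TrkC (Ntrk3) on those neurons. The receptor p75 (Ngfr) binds all neurotrophins and their uncleaved precursors, and it is found on Schwann cells as well as on neurons.

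Levels are log2 of the intensity that the authors had normalized, and a difference is on the same log2 scale, so that 1 is a doubling. Replicate 1 of each group was measured on an array platform with 8 of the samples, and replicates 2 and 3 on a platform with the other 16. The median intensity of a sample was 1997.4 to 2262.6, and precision is limited by how many arrays there are. The means of the 16 tested neuronal markers ranged from 9.43 for Map2 to 15.43 for the calcium-binding protein Calb2. Of the 10 hair cell markers 4 were among the genes tested, and their summed intensity was 2607 to 17917 per sample, against 179133 to 362204 for 16 neuronal markers; Ocm, an outer hair cell protein, spanned 4.33 to 13.15. In P32 hearing apex replicate 1 the summed intensity of 10 macrophage markers was 131372, against 40217 and 43139 in the other samples of its group, and the comparisons between portions are therefore also given without it.

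The Trk receptors were far brighter than the ligands and Ngfr. They had levels near the top of the range, with means over all samples of 13.20 for Ntrk2 and 13.11 for Ntrk3, above 92.0% and 91.3% of the 26419 transcripts on the arrays. Bdnf averaged 7.86, Ngfr 7.96 and Ntf3 8.72, with 46.7%, 47.5% and 53.5% of those transcripts dimmer. Among the genes tested, however, Bdnf, Ngfr and Ntf3 were dim, with means at percentiles 1.11, 1.77 and 9.7. The means of Ntrk2 and Ntrk3 were at percentiles 80.0 and 78.68 of the genes tested. Signals of different array rows are not comparable as amounts of RNA, and whether the dim rows were above background was not tested. The pooled SD within groups was 0.55 for Ntrk2 and 0.57 for Ntrk3, against 0.88 for Bdnf, 0.70 for Ntf3 and 1.11 for Ngfr. When the 8 groups were ordered by mean level, none of the 7 steps between neighbouring groups was larger than the SD of both, for any of the 5 genes.

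**Figure D1:**
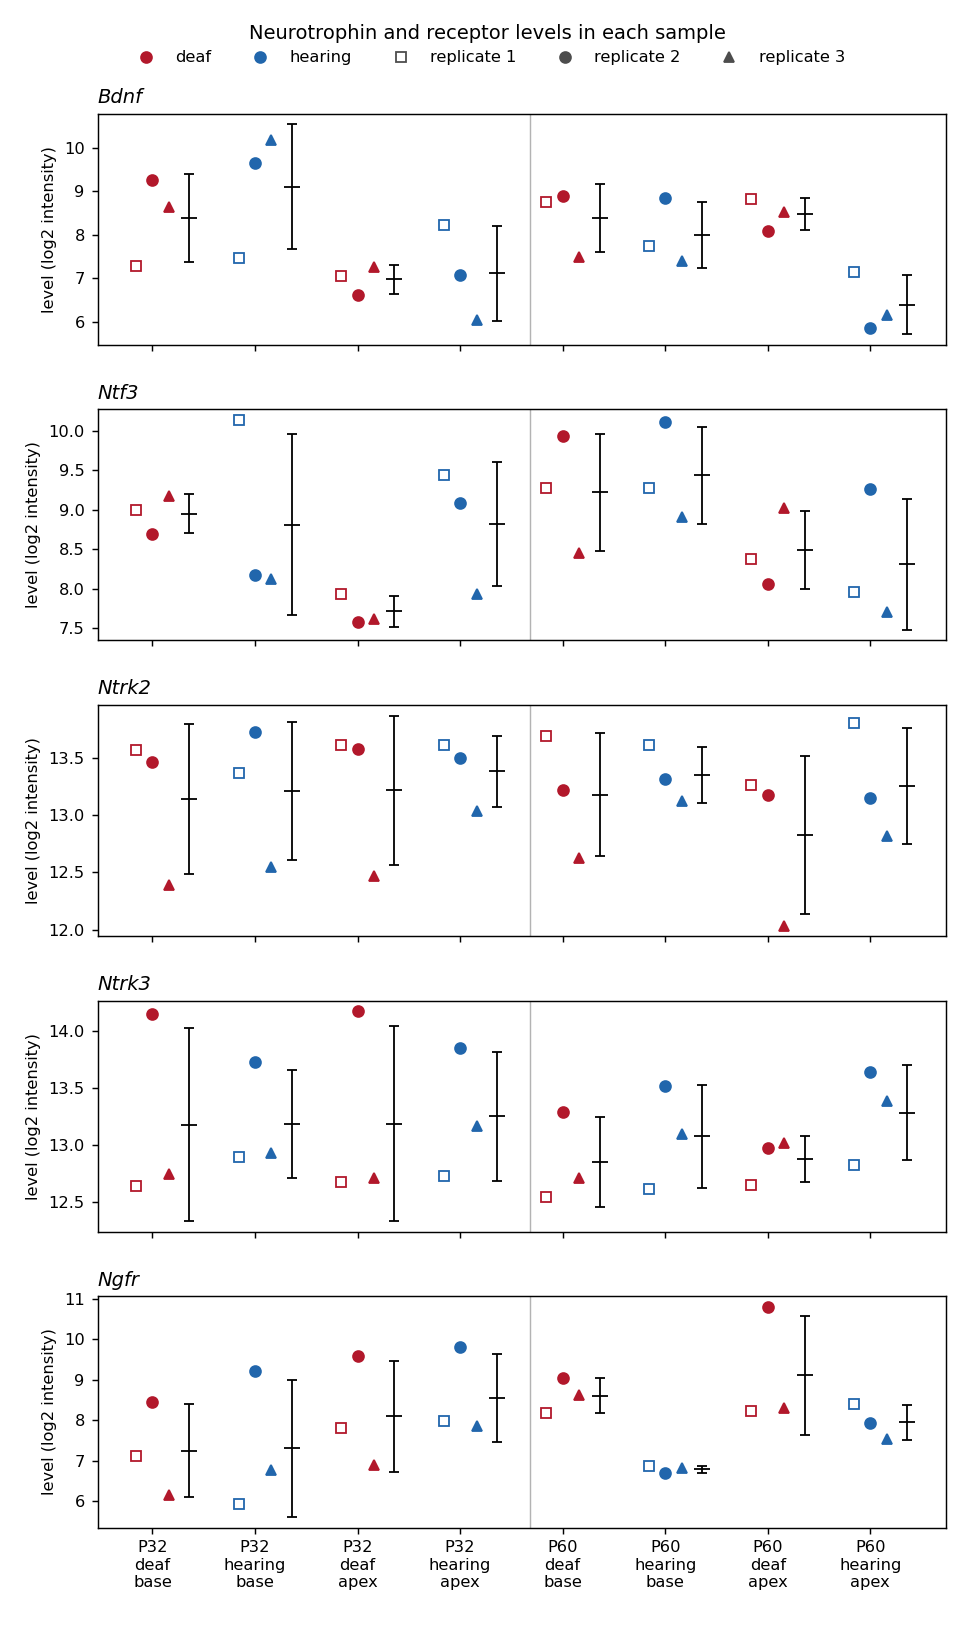
Level of each gene (y axis, log2 intensity) in each of the 24 samples, by group (x axis). Red points are deaf and blue points hearing rats, open squares are replicate 1 and filled circles and triangles are replicates 2 and 3, and the bar beside each group is its mean ± SD (n = 3). Ntrk2 has its lowest value in replicate 3 of all 8 groups, whereas Bdnf is at or below 7.15 in all 3 P60 hearing apex samples.

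The stretch before a start of transcription is shown for the ligands, whose levels were higher in base than in apex in most pairs of samples. RefSeq, on build GRCr8, holds 6 windows of this kind for Bdnf, which is read from several alternative starts, and 3 for Ntf3. The 250 bases before 1 of the Bdnf starts (chr3:116637608-116637857, plus strand) and before 1 of the Ntf3 starts (chr4:160670624-160670873, minus strand) read as follows, 5′ to 3′. Capitals mark TGACG or its reverse complement CGTCA, a core motif of the cAMP response element, which CREB, a transcription factor that Trk signalling activates, is known to bind.
Bdnf: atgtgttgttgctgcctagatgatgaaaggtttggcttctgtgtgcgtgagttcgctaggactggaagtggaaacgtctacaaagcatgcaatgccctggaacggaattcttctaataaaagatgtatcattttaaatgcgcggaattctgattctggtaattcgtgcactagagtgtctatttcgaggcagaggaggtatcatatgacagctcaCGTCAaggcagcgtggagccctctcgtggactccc
Ntf3: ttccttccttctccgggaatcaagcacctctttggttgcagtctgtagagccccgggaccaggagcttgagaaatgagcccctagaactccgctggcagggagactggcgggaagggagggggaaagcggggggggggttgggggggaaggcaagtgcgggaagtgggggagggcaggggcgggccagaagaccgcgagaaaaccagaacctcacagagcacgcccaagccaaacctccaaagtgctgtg
Searched on both strands, TGACG was in 1 of the 6 Bdnf windows, which is the Bdnf window shown, and in 0 of the 3 Ntf3 windows. It was in 18.22% of 33469 RefSeq windows of this length. Some windows of the same gene overlap, so these counts are not of independent stretches. The full palindrome TGACGTCA was in 0 of the 9 windows and in 1.59% of all windows. The array has 1 row for Bdnf, so its starts cannot be told apart in the levels that follow.

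Bdnf was higher in base than in apex in 9 of 12 pairs of samples with the same replicate number, age and condition. In P32 deaf base the level was 7.28, 9.26 and 8.65 in replicates 1, 2 and 3, against 7.05, 6.61 and 7.27 in P32 deaf apex. In P32 hearing base it was 7.47, 9.66 and 10.19, against 8.23, 7.09 and 6.04 in P32 hearing apex. In the P32 deaf rats all base samples were above all apex samples, by a narrow margin (7.28 against 7.27 at the nearest), as 3.17% of all genes had. In the P32 hearing rats replicate 1 was lower in base than in apex, and the groups overlapped. In P60 deaf base Bdnf was at 8.76, 8.90 and 7.49, against 8.83, 8.10 and 8.53 in P60 deaf apex. In P60 hearing base it was at 7.74, 8.84 and 7.41, against 7.15, 5.85 and 6.17 in P60 hearing apex. The P60 deaf groups overlapped, whereas in the P60 hearing rats all base samples were above all apex samples, as 9.58% of all genes had.

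In hearing rats, averaged over both ages, the Bdnf difference between base and apex was 1.80 ± 0.49 (SE, 6 samples a side), a 3.48-fold difference, and it did not pass (limma adjusted p = 0.0844). None of the 5 genes passed in that comparison, in which 1.5% of all genes did. The call depends on how samples are joined. Same-numbered hearing portions deviated together (correlation of deviations 0.54 to 0.88), with the platforms' means still in these values. With a replicate block Bdnf had a limma adjusted p of 0.0634, whereas with same-numbered portions as a random block it had 0.0151 and passed. Without P32 hearing apex replicate 1 it also passed (2.13, limma adjusted p = 0.0142), as it did without P32 hearing base replicate 1 (2.25, limma adjusted p = 0.0182). On the 8-sample platform the difference was -0.08, and on the 16-sample platform it was 2.74, so the value did not hold within the 8-sample platform, which has 1 sample of each group.

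In deaf rats the same difference was 0.66 ± 0.49 (SE, 6 samples a side; limma adjusted p = 0.789), made of 1.42 at P32 and -0.10 at P60. The difference between the deafness effects in base and in apex was -1.14 ± 0.69 for Bdnf (limma adjusted p = 1), and no gene passed there by limma (0.0%; 29 had an unadjusted p under 0.05), so a difference of the gradient between deaf and hearing rats was not shown. Averaged over all groups, a contrast added after the group means had been seen, Bdnf was higher in base by 1.23 ± 0.35 (SE, 12 samples a side), a 2.34-fold difference, and passed (limma adjusted p = 0.0408), as 6.26% of all genes did. It was the only 1 of the 5 genes that passed there. The call was lost without any 1 of 17 of the 24 samples, with adjusted p up to 0.084 by limma, and remained only without P32 hearing apex replicate 1, P32 hearing base replicate 1, P32 deaf base replicate 1, P32 deaf apex replicate 3, P60 hearing apex replicate 1, P60 hearing base replicate 3 or P60 deaf base replicate 3. It was -0.0012 on the 8-sample platform and 1.84 on the 16-sample platform, and with quantile normalization it did not pass (1.02, adjusted p = 0.138).

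**Figure D2:**
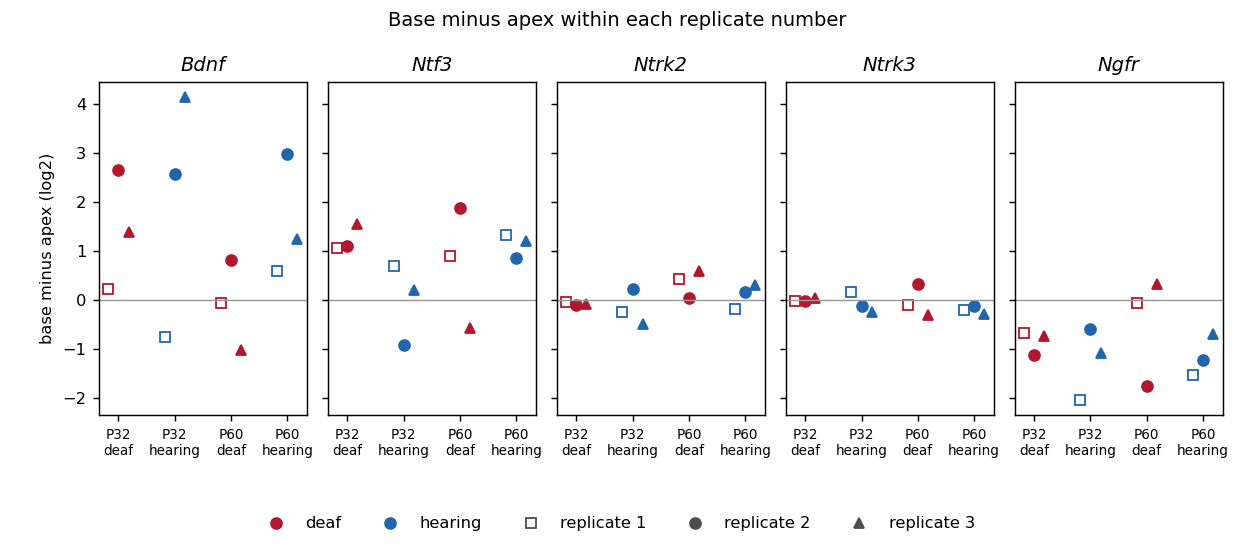
Base minus apex (y axis, log2) for each pair of samples with the same replicate number, by age and condition (x axis), for the 5 genes. Open squares are replicate 1, on the 8-sample platform, and filled symbols are on the 16-sample platform. Bdnf pairs span -1.03 to 4.14, Ngfr is below 0 in 11 of 12 pairs, and the Ntrk2 and Ntrk3 pairs lie within 0.6 of 0.

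At P60 Bdnf was higher in deaf than in hearing rats in 6 of 6 pairs, by 1.24 ± 0.49 (SE, 6 samples a side; 95% interval 0.21 to 2.27), but did not pass after adjustment (limma adjusted p = 0.285). As far as the labels say, these pairs share only a replicate number. The correlation of their deviations in replicates 1, 2 and 3 was 0.80, 0.84 and 0.82 in the base and 0.48, -0.09 and 0.18 in the apex. None of the 5 genes passed at P60, where 1.34% of all genes did. Most of that difference lay in the apex, where the values of the 3 P60 deaf samples (8.83, 8.10 and 8.53) were all above those of the 3 P60 hearing samples (7.15, 5.85 and 6.17), as 7.76% of all genes had them. The apical difference was 2.09 ± 0.69 (95% interval 0.64 to 3.55; limma adjusted p = 0.243), where 0.504% of all genes passed, and in the base it was 0.39 ± 0.69 (limma adjusted p = 1). The difference between these 2 effects at P60 was -1.71 ± 0.98 (limma adjusted p = 1). P60 hearing apex held the lowest Bdnf mean of the 8 groups, at 6.39 ± 0.68 (SD, n = 3). The difference at P60 was 1.34 on the 8-sample and 1.19 on the 16-sample platform.

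At P32 the sign was the other way, with Bdnf lower in deaf rats in 5 of 6 pairs and a difference of -0.43 ± 0.49 (SE; limma adjusted p = 1). None of the 5 genes passed at P32, where 1 gene did (0.0174%). The deafness effect on Bdnf at P60 minus that at P32 was 1.67 ± 0.69 (95% interval 0.21 to 3.12; limma adjusted p = 1). No gene passed in that comparison by limma (0.0%), and 119 had an unadjusted p under 0.05.

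Ntf3 was higher in base than in apex in 10 of 12 pairs. In P32 deaf base it was at 8.99, 8.69 and 9.17, against 7.93, 7.58 and 7.62 in P32 deaf apex. These groups did not overlap, as was so in this direction for 3.17% of all genes. In P32 hearing base it was at 10.14, 8.17 and 8.13, against 9.44, 9.09 and 7.93 in P32 hearing apex, and these groups overlapped. In P60 deaf base the values were 9.28, 9.93 and 8.45, against 8.38, 8.06 and 9.02 in P60 deaf apex. In P60 hearing base they were 9.28, 10.11 and 8.91, against 7.96, 9.26 and 7.71 in P60 hearing apex. At P60 a single apical sample of each condition reached into the range of the base.

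Over both ages the base minus apex difference of Ntf3 was 0.99 ± 0.38 in deaf rats (SE; limma adjusted p = 0.289) and 0.56 ± 0.38 in hearing rats (limma adjusted p = 0.813). None of the 5 genes passed between the portions of deaf rats, where 2.02% of all genes did, although with the random block Ntf3 did (adjusted p = 0.02). Over all groups the Ntf3 difference was 0.77 ± 0.27, a 1.71-fold difference that did not pass (limma adjusted p = 0.105). It passed with same-numbered portions as a random block (adjusted p = 0.00524) but not with a replicate block (0.0633), and it was 0.99 on the 8-sample and 0.66 on the 16-sample platform. It also passed without P60 hearing apex replicate 2 (0.91, limma adjusted p = 0.0376). Between deaf and hearing rats Ntf3 differed by -0.48 ± 0.38 at P32 (limma adjusted p = 1) and by -0.02 ± 0.38 at P60 (limma adjusted p = 0.995). The P60 interval, -0.82 to 0.78, leaves room for a change of the size seen between the portions. In the P32 apex all 3 deaf samples were at 7.93 or below, and the hearing samples, at 9.44, 9.09 and 7.93, overlapped with them by 1 value. The P32 apical difference was -1.11 ± 0.54 (limma adjusted p = 1).

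Cell type markers differed between the portions as well. In base against apex of hearing rats 10 of 10 macrophage markers, 3 of 3 tested supporting and epithelial cell markers and 4 of 4 fibroblast markers were above 0, with median differences of 0.76, 0.43 and 0.26, whereas 15 of 16 neuronal markers were below 0 (median -0.27). Their summed intensities in P60 hearing base were 62988 to 92121 for macrophages and 50554 to 62375 for supporting and epithelial cells, against 27866 to 36496 and 33309 to 39316 in P60 hearing apex. Of the 4 tested hair cell markers 3 were below 0 (median -0.41). Of these lists 1 macrophage marker, Cd74, passed, while no marker of the others did. Among markers of Schwann and satellite glia 8 of 14 were above 0 (median 0.02), and Fabp7 passed. Between the portions of hearing rats 1.5% of all genes passed, and the median difference of all genes was -0.04. Tested bone markers were above 0 in 3 of 4 cases and 2 of them, Bglap and Alpl, passed. The part of these cells in the Bdnf and Ntf3 differences was not tested, and in bulk samples fewer cells of a type and less RNA per cell cannot be told apart.

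Ntrk2, the gene of the Bdnf receptor TrkB, varied little between groups, with group means from 12.83 in P60 deaf apex to 13.38 in P32 hearing apex. Its values followed the replicate number: replicate 3 was the lowest in 8 of 8 groups, averaging 12.63, against 13.57 for replicate 1 and 13.39 for replicate 2. Base minus apex over all groups was 0.05 ± 0.18 (95% interval -0.33 to 0.43; limma adjusted p = 0.942), and the sign changed when single samples were left out. In P60 deaf rats the values were 13.70, 13.22 and 12.63 in base and 13.27, 13.18 and 12.04 in apex, against 13.61, 13.32 and 13.12 in the base and 13.80, 13.15 and 12.81 in the apex of P60 hearing rats. The groups overlapped, and the difference was -0.30 ± 0.26 (SE; limma adjusted p = 0.745). The TrkB protein also exists in a truncated form without the kinase, and the single row of Ntrk2 cannot tell transcripts of the forms apart.

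Ntrk3, the gene of the Ntf3 receptor TrkC, likewise followed the replicate number, with replicate 1 the lowest in 8 of 8 groups (mean 12.69) and replicate 2 the highest in 7 of 8 (mean 13.67). At P60 it was lower in deaf than in hearing rats in 6 of 6 pairs of the same replicate number, although the labels give these samples only a shared number. The values were 12.54, 13.29 and 12.71 in P60 deaf base and 12.64, 12.97 and 13.02 in P60 deaf apex, against 12.61, 13.52 and 13.10 in P60 hearing base and 12.82, 13.64 and 13.38 in P60 hearing apex. Within a replicate number the gaps were -0.07 to -0.67, while the groups overlapped across numbers. The difference was -0.32 ± 0.26 (95% interval -0.86 to 0.22; limma adjusted p = 0.713) and was -0.13 on the 8-sample and -0.41 on the 16-sample platform. At P32 it was -0.04 ± 0.26 (limma adjusted p = 1). All 16 tested neuronal markers were below 0 in deaf rats at P60 (median -0.36), as Ntrk2 and Ntrk3 were, and 0 of the 16 passed, and the receptors were not tested against the neurons' other genes.

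**Figure D3:**
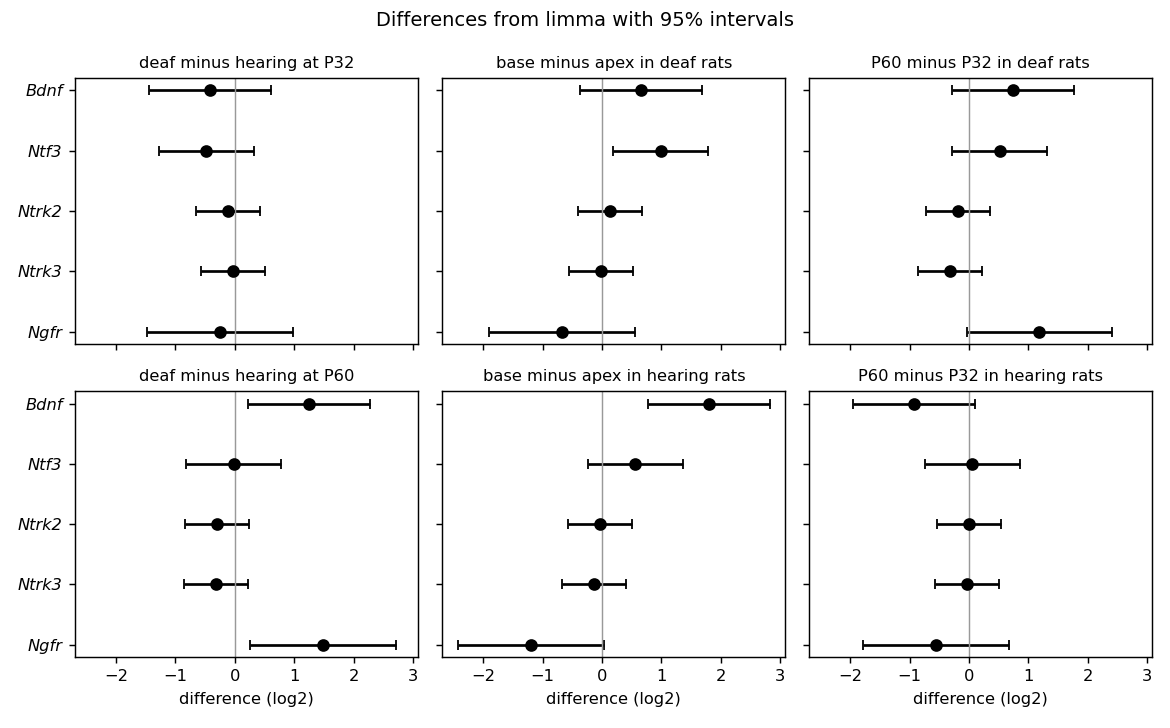
Difference in level (x axis, log2) of each gene with its 95% interval from limma, in the 6 comparisons of deafness, portion and age. The intervals of Ntrk2 and Ntrk3 include 0 in all 6 panels. Those of Bdnf and Ngfr at P60, of Ntf3 between the portions of deaf rats and of Bdnf between the portions of hearing rats do not, before adjustment over all genes.

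Ngfr, the gene of p75, was lower in base than in apex in 11 of 12 pairs, the opposite sign to the ligands. In P32 deaf base its level was 7.13, 8.46 and 6.17, against 7.81, 9.59 and 6.89 in P32 deaf apex. In P32 hearing base it was 5.94, 9.20 and 6.78, against 7.98, 9.81 and 7.86 in P32 hearing apex. Replicate 2 was the highest in all 4 of the P32 groups, and base and apex overlapped across numbers. In P60 deaf base the levels were 8.18, 9.04 and 8.62, against 8.23, 10.79 and 8.30 in P60 deaf apex. In P60 hearing base they were 6.86, 6.70 and 6.83, against 8.39, 7.93 and 7.53 in P60 hearing apex. P60 hearing base was the tightest of the Ngfr groups, at 6.80 ± 0.09 (SD, n = 3), and lay below every apical sample of P60 hearing rats, as 4.83% of all genes did.

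The base minus apex difference of Ngfr was -1.20 ± 0.58 in hearing rats (SE; limma adjusted p = 0.556), with lower values in 6 of 6 pairs. With same-numbered portions as a random block it passed, with an adjusted p of 0.0266, and with a replicate block it did not (0.149). It was -0.67 ± 0.58 in deaf rats (limma adjusted p = 0.854). Over all groups it was -0.94 ± 0.41 and did not pass (limma adjusted p = 0.232), but it passed with a replicate block (adjusted p = 0.0433) and with the random block (0.0068). It was -1.08 on the 8-sample and -0.86 on the 16-sample platform. Without P32 hearing apex replicate 1 the difference over all groups was -0.96 for Ngfr, 0.83 for Ntf3 and 1.39 for Bdnf, of which Bdnf alone passed (limma adjusted p = 0.011).

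At P60 Ngfr was higher in deaf than in hearing rats in 5 of 6 pairs, by 1.48 ± 0.58 (SE), a 2.80-fold difference that did not pass after adjustment (95% interval 0.26 to 2.71; limma adjusted p = 0.284). It passed with a replicate block within each age (limma adjusted p = 0.0279), although the labels give these samples only a shared number. It did not pass with a single replicate block (0.0543). With same-numbered portions as a random block Ngfr did not pass either, nor with quantile normalization (1.42, limma adjusted p = 0.406). In the base the 3 deaf samples (8.18, 9.04 and 8.62) lay above the 3 hearing samples (6.86, 6.70 and 6.83), as 5.18% of all genes had it, with a difference of 1.81 ± 0.82 (limma adjusted p = 1; 0.0696% of all genes passed). In the apex the groups overlapped and the difference was 1.16 ± 0.82 (limma adjusted p = 0.74). Without P60 deaf apex replicate 2, the highest Ngfr value of all samples, the difference at P60 was 1.10. It was 0.57 on the 8-sample and 1.94 on the 16-sample platform. At P32 it was -0.25 ± 0.58 (limma adjusted p = 1), and the effect at P60 minus that at P32 was 1.74 ± 0.82 (95% interval 0.01 to 3.47; limma adjusted p = 1).

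Markers of macrophages rose in the same comparison, in which 1.34% of all genes passed and the median of all genes was 0.04. At P60 in deaf rats 10 of 10 macrophage markers were above 0 (median 1.20), 6 of which rose, among them the complement gene C1qb (1.30, limma adjusted p = 0.0313), while 9 of 14 markers of Schwann and satellite glia were above 0 (median 0.19) and none passed. The summed intensity of the glial markers was 215774 to 275703 in P60 deaf base and 155464 to 211138 in P60 deaf apex, against 192960 to 249190 in P60 hearing base and 161135 to 193276 in P60 hearing apex. The part of either cell type in the Ngfr difference was not tested.

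Between the ages none of the 5 genes passed, in deaf rats, where 0.104% of all genes did, or in hearing rats, where 0.087% did. Ngfr was higher at P60 than at P32 in 6 of 6 pairs of deaf rats, by 1.18 ± 0.58 (SE; limma adjusted p = 0.875), and differed by -0.55 ± 0.58 in hearing rats (limma adjusted p = 0.76). Bdnf differed by 0.75 ± 0.49 in deaf rats (limma adjusted p = 0.875) and by -0.92 ± 0.49 in hearing rats (limma adjusted p = 0.652). The P60 deaf samples enter both this and the comparison with P60 hearing rats, so the 2 are not independent. For Ntf3, Ntrk2 and Ntrk3 the differences between ages were within -0.33 to 0.53 in both conditions.

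Across the 24 samples, with the platforms' means removed, the Trk receptors varied together more than the ligands did. Pearson's r was 0.76 between Ntrk2 and Ntrk3, against 0.27 between Bdnf and Ntf3. It was 0.49 between Ntrk2 and Ngfr, 0.34 between Ntrk3 and Ngfr and -0.02 between Bdnf and Ngfr. These are descriptions over samples that share platforms and, for Ntrk2 and Ntrk3, the pattern by replicate number. Ngfr shares such a pattern in part, with replicate 2 the highest in 6 of 8 groups. The genes most like each of the 5 by the same measure over the 24 samples were Caly (r = 0.83), Krt8 (0.78) and Thbd (0.72) for Bdnf, and Adm (0.89), Mustn1 (0.83) and Nostrin (0.82) for Ntf3. Krt8, a keratin of epithelia, was higher in base over all groups by 1.03 ± 0.19 (limma adjusted p = 0.00228). Thbd passed there too, at 0.97 ± 0.22 (limma adjusted p = 0.0106), and Caly did not, at 0.60 ± 0.21 (limma adjusted p = 0.108). The genes most like Ntrk2 were Camk2g (0.92), Pde4dip (0.90) and Eif2ak1 (0.89), and those most like Ntrk3 were Coq9 (0.93), Lrrc4 (0.93) and Alkbh3 (0.93). Those most like Ngfr were the laminin receptor subunits Itgb4 (0.91) and Itga7 (0.91) and the nuclear protein Daxx (0.90).

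The other genes of the pathway were taken from 4 lists, with 70 genes tested in the main table. These are other ligands, receptors and processing enzymes (7 of 20 tested), signal transducers of the Trk receptors (32 of 52), partners and effectors of p75 (22 of 35) and genes that Trk signalling is known to induce (9 of 16). In deaf against hearing rats at P60 1 of the 70 rose and none fell, against 1.34% of all genes. The list medians were 0.13, 0.09, 0.13 and 0.30, beside 0.04 for all genes. At P32 none of the 70 passed, with list medians from -0.04 to 0.13 beside -0.02.

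The gene that rose was Fos, an immediate early transcription factor that many stimuli besides Trk signalling induce. Its levels in P60 deaf rats were 11.09, 11.56 and 11.71 in base and 11.03, 12.62 and 11.88 in apex, against 9.55, 10.36 and 10.73 in the base and 9.03, 10.15 and 9.67 in the apex of P60 hearing rats. All 6 deaf samples were above all 6 hearing samples, as in 1.17% of all genes, with a difference of 1.73 ± 0.26 (limma adjusted p = 0.00188). The other genes with the smallest p in their lists did not pass. Among genes that Trk signalling is known to induce these were Dusp6, at 0.71 ± 0.26 (limma adjusted p = 0.23), and Junb, a partner of Fos, at 1.44 ± 0.55 (limma adjusted p = 0.269). Among ligands, receptors and processing enzymes they were Serpini1 (-0.53) and Plau (0.77), and among Trk transducers Shc1 (0.68) and Sh2b1 (0.475). Jun, an effector of p75 signalling, was at 1.45 ± 0.55 (limma adjusted p = 0.269). Omg, a myelin glycoprotein that binds the Nogo receptor complex with p75, was at -0.68 ± 0.17 (limma adjusted p = 0.0525). At P32 Fos was at 1.12 ± 0.26 (limma adjusted p = 0.205).

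Between the portions 1 of the 70 passed in deaf rats, where 2.02% of all genes did. This was Omg, which was higher in base by 0.69 ± 0.17 (limma adjusted p = 0.0374). None of the 70 passed in hearing rats, where 1.5% of all genes did. Over all groups 2 of the 70 passed, beside 6.26% of all genes. Mag, a second myelin ligand of the Nogo receptor complex and itself a marker of Schwann cells, was higher in base by 1.26 ± 0.28 (limma adjusted p = 0.00878) and Omg by 0.43 ± 0.12 (limma adjusted p = 0.0368). Mag averaged 12.67 ± 0.69 in base and 11.41 ± 0.79 in apex (SD, n = 12 each), and the 2 ranges overlapped. None of the 70 fell, and the list medians were from -0.20 to -0.02, beside -0.04 for all genes.

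**Figure D4:**
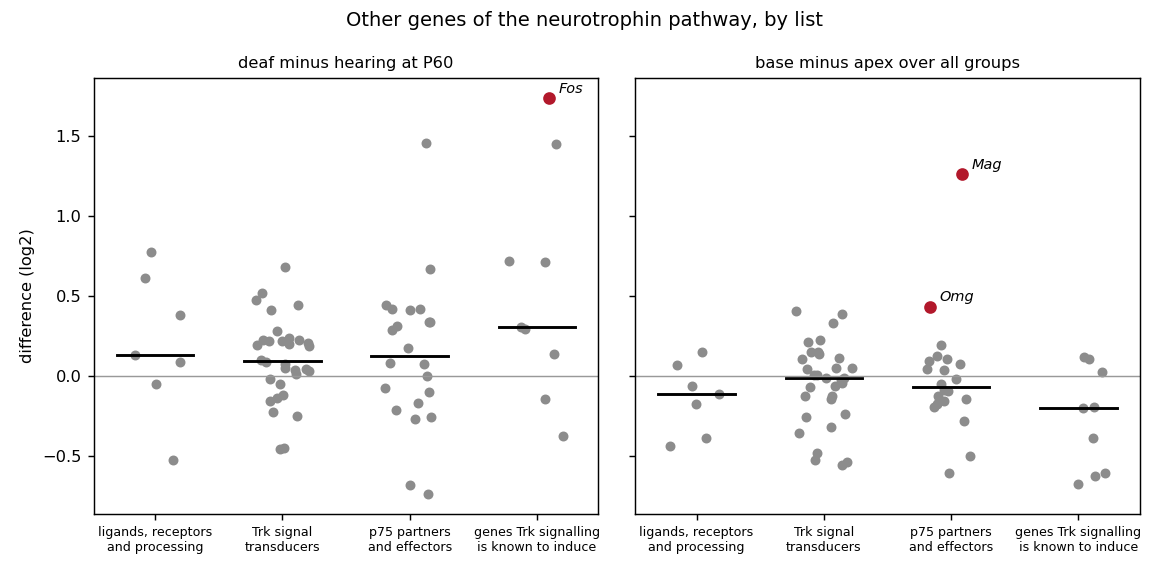
Difference in level (y axis, log2) of the 70 other pathway genes by list (x axis), for deaf minus hearing at P60 and for base minus apex over all groups. Grey points did not pass, named red points passed at an adjusted p under 0.05 by limma, and the black line is the list's median. Fos is the single red point for deafness, and Mag and Omg are the red points for the portions.

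A further 17 genes of these lists had rows only in the fuller tables of the platforms, with 9627 genes. At P60 1 of the 17 rose, against 0.758% of all genes there. This was Mmp7, a secreted protease known to cleave neurotrophin precursors. Its levels in P60 deaf rats were 6.57, 5.51 and 5.67 in base and 6.62, 6.31 and 6.52 in apex, against 3.50, 3.80 and 3.28 in the base and 3.50, 3.53 and 3.13 in the apex of P60 hearing rats. The 6 deaf samples were all above the 6 hearing samples, as in 0.914% of the 9627 genes, with a difference of 2.75 ± 0.44 (limma adjusted p = 0.0053). The hearing values lie near the fifth percentile of all transcripts, 3.22, and were not shown to be above background, so no fold is given. At P32 Mmp7 was at 1.80 ± 0.44 (limma adjusted p = 0.251). Over all groups the metalloprotease Mmp3 was higher in base by 1.09 ± 0.30 (limma adjusted p = 0.039) and the phosphatase Dusp4 was lower by 0.46, at -0.46 ± 0.12 (limma adjusted p = 0.0345), where 5.37% of all genes passed.

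The fuller tables also held a relative of the ligands, Ntf4, which acts through TrkB as well. Ntf4 spanned 4.33 to 6.58 over the 24 samples. It did not pass in any of the comparisons of deafness, portion and age. At P60 the deaf minus hearing difference was 0.20 ± 0.35 for Ntf4 (limma adjusted p = 1).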

How the data were processed

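Intensity values were deposited by the authors on a linear scale after normalization with RMA, per the submitters' processing notes, which give no version in the sources used here. Technical replicates had been averaged, per the labels. The main table holds 14138 transcripts; those of the platforms hold 26419, and shared values agree to within 0.002; the rule that chose the main table's transcripts, and whether the platforms were normalized together, are not given in the sources used here. RefSeq (GRCr8) named 5828 transcripts of 5750 genes, and the brightest transcript by mean was kept. Log2 of the intensity was fitted by empirical Bayes linear models (limma 3.58.1, R 4.3.3) over all 24 samples with 8 group means, a platform term and 15 residual degrees of freedom. Tests are two-sided and adjusted p is by Benjamini-Hochberg over all genes of the table, with a threshold of 0.05. Interactions are differences of 2 effects. Samples shared at most 1 identical value. The fit was tested on simulated data.

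Members, lists and tests were chosen with earlier results of these data known. Named were the 5 members, all list genes that passed, in each list and comparison at most 2 others with the smallest p, and the 3 genes most correlated with each member. Ntf4, and the portion tests of Krt8, Thbd and Caly, were singled out after their values had been seen. Samples with the same replicate number, taken from the labels, were compared by the correlation of their deviations from group means. All correlations were over 0.1 for deafness at P32 (0.28 to 0.81), portions of hearing rats (0.54 to 0.88) and age (0.20 to 0.76). Not all were for deafness at P60 (-0.09 to 0.84) or portions of deaf rats (-0.02 to 0.92). The lowest value of both was in a pair with P60 deaf apex replicate 2. The deviations keep the platforms' means, which same-numbered samples share, so the correlations cannot show that samples share animals. Alternatives were the replicate block, portions as a random block, no platform term, a pseudocount of 64, other normalizations, a filter on dim genes, other tables and transcripts, 1 platform alone, and leaving out each sample.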

Additional observations from a re-analysis of the deposited data

How the results depend on the processing

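The 3 samples a group and the dim rows of Bdnf, Ntf3 and Ngfr limit what can be told, and a call near the threshold changed with the handling of replicate number. The number of the 5 genes that passed was 0 in every comparison but base minus apex over all groups, where it was 1. With a replicate block it became 2 over all groups (Ngfr added, adjusted p = 0.0433), and with the block within each age it became 3 there and 1 for deafness at P60 (Ngfr, adjusted p = 0.0279). With same-numbered portions as a random block it became 3 over all groups, 2 in hearing rats (Bdnf and Ngfr) and 1 in deaf rats (Ntf3, adjusted p = 0.02), and with both blocks, an alternative chosen after seeing the data, it was again 3, 2 and 1. It became 0 over all groups with quantile normalization, and 1 in hearing rats on the 16-sample platform alone (Bdnf). The filter on dim genes removes Bdnf, Ntf3 and Ngfr, so its count of 0 over all groups covers only Ntrk2 and Ntrk3. With single samples left out it was 0 to 1 over all groups and 0 to 1 in hearing rats. The other settings changed no count of the 5 genes.

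Differences that changed sign never passed. For Ntrk2 these were age in hearing rats (-0.0276 with quantile normalization, -0.0996 on the 16-sample platform) and portions of hearing rats (0.0536 there). On that platform Ntrk3 was at 0.0243 for deafness at P32 and at 0.0066 for portions of deaf rats, and Ntf3 at -0.0677 for the deafness effect at P60 minus that at P32. With single samples left out, the ranges were -0.2168 to 0.3743 for Ntf3, -0.1182 to 0.1861 for Ntrk2 and -0.1561 to 0.0648 for Ntrk3 for age in hearing rats; -0.0171 to 0.2848 for Ntrk2 and -0.2165 to 0.1837 for Ntrk3 for portions of deaf rats; -0.2168 to 0.0874 for Ntrk2 for portions of hearing rats. Over all groups they were -0.0389 to 0.124 for Ntrk2 and -0.1764 to 0.0237 for Ntrk3. For deafness at P32 they were -0.5881 to 0.1841 for Ngfr, -0.2563 to 0.0636 for Ntrk2 and -0.2373 to 0.1413 for Ntrk3, and at P60 -0.2275 to 0.2538 for Ntf3. The deafness effect in base minus that in apex was -0.0803 to 0.32 for Ntrk3.

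Counts of all genes that passed moved more, with extremes over the settings and then over single samples left out. For deafness at P60 the count was 4 (random block) to 271 (block within each age) and 29 (without P60 hearing base replicate 1) to 171 (without P32 hearing apex replicate 1), beside 77. It was 0 to 12 and 1 to 38 for deafness at P32, beside 1; 29 to 588 and 61 (without P32 deaf apex replicate 1) to 159 for portions of deaf rats, beside 116; 54 to 539 and 38 (without P32 hearing apex replicate 2) to 317 for portions of hearing rats, beside 86; 169 to 1344 and 250 to 628 over all groups, beside 360; 0 to 140 and 2 to 9 for age in deaf rats, beside 6; 0 to 84 and 0 to 8 for age in hearing rats, beside 5; and 0 to 1 in both for the deafness effect at P60 minus that at P32, beside 0. The highest count with a sample left out came without P32 hearing apex replicate 1 in each of these but age in hearing rats. The replicate block gave 142 genes for portions of hearing rats, 14 and 9 for age in deaf and hearing rats, 178 for deafness at P60 and 619 over all groups. The labels do not say whether same-numbered samples share more than a number. The cause of the changes in these counts was not tested.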
